A study of Mus musculus with 6 samples.

Results

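Glutathione S-transferases are the enzymes that join glutathione to reactive, mostly hydrophobic molecules so that these can be reduced or exported. The soluble enzymes fall into classes named by Greek letters, and a separate membrane-bound family, the microsomal transferases, sits in the endoplasmic reticulum and the outer mitochondrial membrane. In tumour cells they are known for removing products of lipid peroxidation and for conjugating alkylating drugs, and several of their genes are targets of the antioxidant transcription factor NRF2. Described here are 9 of these genes (Gsta1, Gsta4, Gstm1, Gstm5, Gstp1, Gsto1, Gstk1, Mgst1 and Mgst3), matched by gene symbol among the 21878 genes of the deposited table. All 9 were found. The list was chosen by measured values, since it was drawn up after the FPKM of Gsta4 and Gstm1 had been seen to be lower in RPMI-1640. For this reason the values of the 9 genes in this comparison are given as a description and without p-values.

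RNA was sequenced from B16F10, an established mouse melanoma line labelled wild type, kept in DMEM (3 libraries) or in RPMI-1640 (3 libraries), in either case with 10% fetal bovine serum and antibiotics. The label for time is 0 in all of them, with no unit. The DMEM titles include HG, an abbreviation left unexplained, and no glucose level is given. Before the replicate number the DMEM titles have a 3 and the RPMI-1640 titles a 1, and what these digits mark and the medium cannot be told apart. The title of DMEM replicate 3 ends in L3 and all others in L2. The labels also attach to every library a protocol for fat cell differentiation with dexamethasone, isobutylmethylxanthine and insulin, and whether any library received it is not given. Separate cultures are not stated for the replicates, so p-values reflect variation among libraries alone, and that variation could be technical.

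The values are FPKM, fragment counts scaled by the authors for gene length and sequencing depth, so that levels can be compared between genes. Sequencing depth ran from about 37000000 to 46400000 reads per library. Depth relative to other libraries was worked out from the step size of the low values. Its scale was set by the annotated lengths of genes with 1 transcript. The 7 pigment cell markers summed to 12964 to 13199 FPKM in DMEM and to 10677 to 10833 FPKM in RPMI-1640. They did not all follow the sum. Sox10, Pmel and Dct were lower in RPMI-1640 without overlap, and Tyrp1 and Mlana overlapped. Mitf was higher, at 48.3 to 60.3 FPKM in DMEM and 76.7 to 83.9 FPKM in RPMI-1640, as was Tyr, at 115 to 134 and 139 to 148 FPKM. The 7 adipocyte markers summed to at most 0.614 FPKM in any library, and Fabp4, the fatty acid binding protein of fat cells, was at 0 in all 6. Marker sums of endothelial, hepatocyte and epithelial cells were at most 0.478 FPKM. Those of fibroblasts were 1.21 to 1.48 FPKM in DMEM and 3.61 to 4.3 FPKM in RPMI-1640, where Col1a2 accounted for the higher sum (0.518 to 0.623 against 2.85 to 3.5 FPKM) and Dcn was at 0 throughout. Those of macrophages were 2.43 to 2.76 FPKM and 1.67 to 1.82 FPKM, almost wholly Cd68, with Ptprc and Adgre1 at 0 in all libraries. The part of these small sums in the results was not tested. In bulk RNA, fewer cells that express a gene and less RNA per cell cannot be told apart.

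Several transferase genes have close copies, and this limits which values can be read alone. The first 60 coding bases are shown for 3 pairs of related genes and for Gsta4, because they show how closely members of a class resemble each other; they were taken from the transcripts of GENCODE release M21 (GRCm38). Lower case is the sequence as annotated, and capitals mark bases that differ from the first gene of each set.
Gsta1: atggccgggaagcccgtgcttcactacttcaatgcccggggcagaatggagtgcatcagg
Gsta2: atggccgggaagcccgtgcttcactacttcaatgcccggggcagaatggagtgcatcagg
Gsta4: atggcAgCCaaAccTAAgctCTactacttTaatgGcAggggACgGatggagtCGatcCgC
Gstp1: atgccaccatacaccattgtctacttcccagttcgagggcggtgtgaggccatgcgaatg
Gstp2: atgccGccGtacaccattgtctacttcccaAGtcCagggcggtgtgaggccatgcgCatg
Gstm1: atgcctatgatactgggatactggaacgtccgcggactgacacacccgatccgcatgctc
Gstm2: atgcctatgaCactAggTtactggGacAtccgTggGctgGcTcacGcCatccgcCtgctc
Gsta1 and Gsta2 differ at 0 of these 60 bases, whereas Gsta4 differs from Gsta1 at 19. Gstp2 differs from Gstp1 at 6 bases and Gstm2 from Gstm1 at 12. Over the whole of its longest transcript, 92.1% of the 32-base words of Gsta1 occur in transcripts of other genes, most of them in the predicted gene Gm3776. The share is 67.2% for Gstp1, all of it with Gstp2, and 33.6% for Gstm1, mostly with the pseudogene Gstm2-ps1. It is 0 for Gsta4, Gstm5, Gsto1 and Mgst1, 0.1% for Gstk1 and 1.0% for Mgst3. The sources used here do not say how reads with several matches were assigned, and the values of Gsta1, Gstp1 and, in part, Gstm1 are therefore uncertain.

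Most of the transferase genes stood lower in RPMI-1640, by 1.17-fold (Gsto1) to 3.88-fold (Gsta4), while the kappa class gene Gstk1 stood 1.91-fold higher. In the fit of limma to all genes, 7 of the 9 genes were past an adjusted p of 0.05 as lower in RPMI-1640 (35.4% of all 10624 tested genes were), 1 as higher (40.6% of all), and 1, Gsta1, was not; in either direction 76.0% of all tested genes were called. With libraries scaled to a common FPKM total, 67.3% of the calls over all genes were higher, beside 53.4% as deposited. The FPKM ranges of DMEM and RPMI-1640 were apart for 7 genes that were lower (36.7% of all tested genes) and 1 that was higher (42.2%). The median log2 fold change of the 9 genes was -0.81, beside 0.033 for all tested genes. A negative fold change means a lower level in RPMI-1640, and because 1 FPKM was added before taking log2, changes of weakly expressed genes are understated. Since the choice of genes used this comparison, nothing is read from these counts.

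Gsta4 encodes the alpha class transferase known for conjugating hydroxynonenal, a reactive aldehyde from oxidised lipids, and it showed the largest difference of the 9. In DMEM it measured 34.6, 34.3 and 29.2 FPKM, and in RPMI-1640 only 7.84, 8.77 and 8.69 FPKM. All RPMI-1640 values lay far below all DMEM values, and the libraries within a medium were close to each other. The mean was 3.88-fold higher in DMEM (32.7 ± 3.07 against 8.43 ± 0.513, SD, n = 3 each), a log2 fold change of -1.83 (SE 0.074), and 19 tested genes, Gsta4 among them, had a fold change this low or lower. The values rest on 293 to 1486 reads per library. The gene (ENSMUSG00000032348.6, 7 exons) maps to chromosome 9 (plus strand, bases 78182774 to 78209349 of GRCm38).

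**Figure D1:**
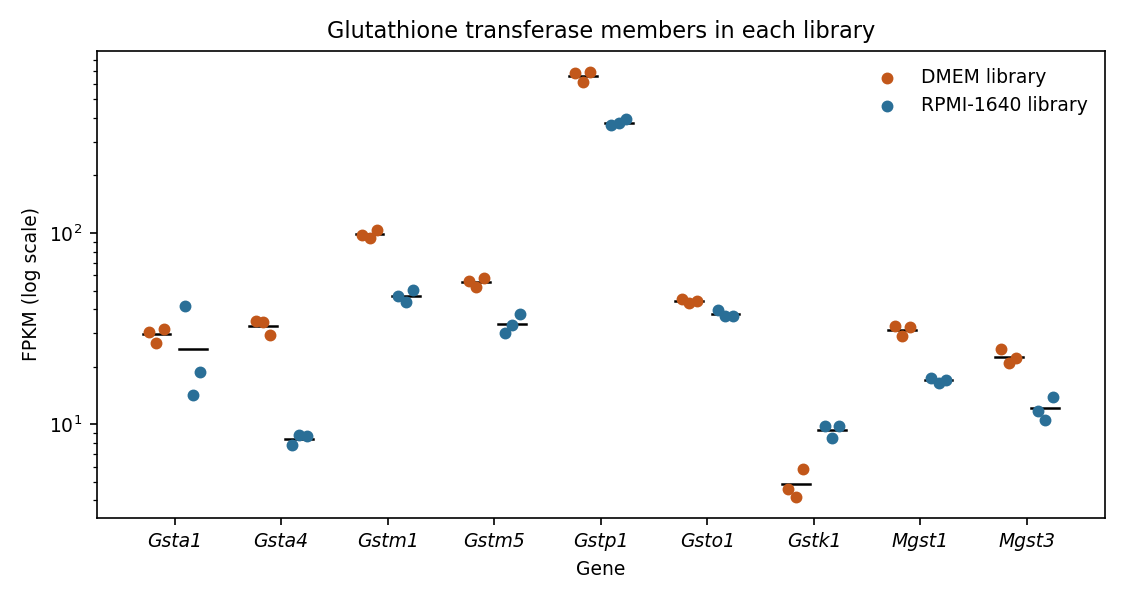
FPKM on a log axis of each of the 9 genes in the 3 DMEM and 3 RPMI-1640 libraries, with a black line at the mean of each medium. The points of the media are apart for every gene but Gsta1, whose RPMI-1640 replicate 1 lies at 41.5 FPKM above all DMEM points, and Gstk1 alone is higher in RPMI-1640.

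Gsta1, the other alpha class gene listed, encodes an enzyme with broad activity on electrophiles and organic peroxides. It was at 30.4, 26.7 and 31.4 FPKM in DMEM and at 41.5, 14.2 and 18.8 FPKM in RPMI-1640. RPMI-1640 replicate 1 was the highest of all 6 libraries and the other two RPMI-1640 libraries were the lowest, so the media overlapped. The log2 fold change was -0.38 (SE 0.27). Without RPMI-1640 replicate 1 it was -0.81 and past the threshold. Without RPMI-1640 replicate 2 it was -0.069 and without RPMI-1640 replicate 3 it was -0.26, neither past the threshold. Gsta2, a near copy of Gsta1, was at 8.5, 7.5 and 9.95 FPKM in RPMI-1640, so replicate 1 was not set apart there. Gm3776, the predicted gene that shares most words with Gsta1, was at 3.81, 2.47 and 2.24 FPKM in RPMI-1640. There replicate 1 was the highest of the RPMI-1640 libraries. The summed FPKM of Gsta1, Gsta2 and the predicted genes Gm3776 and Gm10639, a sum chosen after the values were seen, was 63.8, 61.8 and 66.4 in DMEM and 55.9, 25.9 and 32.1 in RPMI-1640. In this sum the media did not overlap, and replicate 1 still stood above the other RPMI-1640 libraries. Gsta1 (ENSMUSG00000074183.3) maps to chromosome 9 (plus strand, bases 78230656 to 78242684).

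Gstm1 and Gstm5 are mu class genes, whose enzymes act on epoxides and quinones among other substrates. Gstm1 was at 98.1, 93.7 and 104 FPKM in DMEM and at 46.9, 43.6 and 50.2 FPKM in RPMI-1640. The media were well apart, with means of 98.7 ± 5.3 and 46.9 ± 3.27 FPKM, 2.1-fold higher in DMEM (log2 fold change -1.06, SE 0.06). Gstm5 was at 55.9, 52.2 and 58.5 FPKM in DMEM and at 30, 33.0 and 37.7 FPKM in RPMI-1640, 1.65-fold higher in DMEM (log2 fold change -0.71, SE 0.076). Its RPMI-1640 libraries also lay below every DMEM library, but were spread over a wider range in proportion than those of Gstm1. Gstm1 (ENSMUSG00000058135.12, minus strand, 108012255 to 108017973) and Gstm5 (ENSMUSG00000004032.10, plus strand, 107895821 to 107898686) stand in the mu class cluster of chromosome 3.

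Gstp1, the pi class transferase that is abundant in many tumours and also binds the stress kinase JNK, had the highest level of the 9 genes in every library. It measured 684, 614 and 695 FPKM in DMEM and 365, 374 and 393 FPKM in RPMI-1640. The lowest DMEM library was DMEM replicate 2, and it was still well above all RPMI-1640 libraries. The mean was 1.76-fold higher in DMEM (664 ± 43.7 against 378 ± 14.3), a log2 fold change of -0.81 (SE 0.058), from 10600 to 23987 reads per library. Summed with its copy Gstp2, it was also 1.76-fold higher in DMEM. Gstp1 (ENSMUSG00000060803.6) maps to chromosome 19 (minus strand, bases 4035407 to 4037985).

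Gsto1 encodes the omega class enzyme, which uses a cysteine and reduces dehydroascorbate and glutathione-bound proteins instead of forming conjugates in the main. It was at 45.3, 43.3 and 43.9 FPKM in DMEM and at 39.5, 36.9 and 36.9 FPKM in RPMI-1640. The media did not overlap, but the difference was small, 1.17-fold (log2 fold change -0.22, SE 0.049). With all libraries scaled to a common FPKM total the value was -0.06 and not past the threshold, and with the length and base composition trend removed it turned to 0.076. It was not past the threshold there, so the direction of Gsto1 depends on that correction. It (ENSMUSG00000025068.8) maps to chromosome 19 (plus strand, bases 47854970 to 47864790).

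Gstk1, of the kappa class found in mitochondria and peroxisomes, was the exception. It was at 4.61, 4.19 and 5.86 FPKM in DMEM and at 9.79, 8.46 and 9.75 FPKM in RPMI-1640. Every RPMI-1640 library was above every DMEM library, with a mean 1.91-fold higher in RPMI-1640 (9.33 ± 0.755 against 4.89 ± 0.871; log2 fold change 0.82, SE 0.1). It had the fewest reads of the 9 genes, 144 to 357 per library. Gstk1 (ENSMUSG00000029864.7) maps to chromosome 6 (plus strand, bases 42245935 to 42250447).

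Mgst1 and Mgst3 are microsomal transferases, and they also have peroxidase activity on lipid hydroperoxides. Mgst1 was at 32.7, 28.9 and 32.2 FPKM in DMEM and at 17.5, 16.5 and 17.1 FPKM in RPMI-1640, 1.83-fold higher in DMEM (log2 fold change -0.84, SE 0.059). Mgst3 was at 24.7, 21.0 and 22.2 FPKM in DMEM and at 11.8, 10.5 and 13.9 FPKM in RPMI-1640, 1.87-fold higher in DMEM (log2 fold change -0.86, SE 0.092). For both genes all RPMI-1640 libraries were below all DMEM libraries. Mgst1 (ENSMUSG00000008540.11) maps to chromosome 6 (plus strand, bases 138140316 to 138156755), and Mgst3 (ENSMUSG00000026688.5) to chromosome 1 (minus strand, bases 167371966 to 167393841).

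The order of the levels differed between the media. In DMEM the order by mean FPKM was Gstp1, Gstm1, Gstm5, Gsto1, Gsta4, Mgst1, Gsta1, Mgst3 and Gstk1, where the ranges of Gsta4, Mgst1 and Gsta1 overlapped from each to the next and those of the other neighbours did not. In RPMI-1640 it was Gstp1, Gstm1, Gsto1, Gstm5, Gsta1, Mgst1, Mgst3, Gstk1 and Gsta4. There the ranges of Gsto1, Gstm5, Gsta1 and Mgst1 overlapped from each to the next, as did those of Gstk1 and Gsta4. Gstm5 and Gsto1 exchanged the third and the fourth place, and Gsta4 went from the fifth place to the last, where its range overlapped that of Gstk1.

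The table holds another 17 genes of the family, taken as the rest of the family with earlier results of these data known, and 12 of them passed the expression filter (mean FPKM of 1 or more). Of these, 8 fell in RPMI-1640 (35.4% of all tested genes did), 2 rose (40.6% of all) and 2 did not pass, by limma with Benjamini-Hochberg adjustment over all tested genes. Their median log2 fold change was -0.79. Among the mu class genes Gstm2 went from 89.0 ± 4.79 to 62.4 ± 2.54 FPKM (-0.51, limma adjusted p = 4.95e-06), and Gstm6 from 8.41 ± 0.168 to 2.93 ± 0.161 (-1.26, limma adjusted p = 4.08e-08). Gstm7 (-1.08) and Gstm4 (-0.85) fell as well. The share of words found in other genes was 18.7% for Gstm2, 16.9% for Gstm6, 3.0% for Gstm4 and 1.8% for Gstm7. Part of it was with other mu class genes, so their values may not be fully separate. With the trend of length and GC content described further on removed, these 4 genes were still past the threshold as lower, at -0.20 for Gstm2, -0.99 for Gstm6, -0.73 for Gstm7 and -0.53 for Gstm4. Together with the listed Gstm1 and Gstm5, whose own differences were part of the choice, they lie within 149 kb of chromosome 3, from 107895821 to 108044894.

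Outside the mu class 4 more genes fell, by log2 fold changes between -0.75 and -1.29. Gsta2 went from 22.5 ± 1.67 to 8.65 ± 1.23 FPKM (-1.29, limma adjusted p = 2.42e-07), although 74.9% of its words are shared with other genes, and Gstp2 had a log2 fold change of -0.75 (-0.32 with the trend removed) with 77.5% shared. The theta class genes Gstt3 (-1.08) and Gstt1 (-0.83, or -0.45 with the trend removed) fell. Gstt2 was at 1.46 ± 0.328 and 1.77 ± 0.156 FPKM and did not pass (log2 fold change 0.18). It did pass as higher without DMEM replicate 1 (0.29), with a common FPKM total (0.28) and with the trend removed (0.38). Gstz1, maleylacetoacetate isomerase of tyrosine breakdown, was at 33.7 ± 1.27 and 33.8 ± 1.09 FPKM and did not pass (log2 fold change 0.0034, SE 0.051). Its ranges overlapped between the media, although with a common FPKM total its log2 fold change was 0.16 and past the threshold. Hpgds, the sigma class prostaglandin D synthase, rose from 4.32 ± 0.498 to 6.31 ± 0.696 FPKM (0.46, limma adjusted p = 0.000804), or by 0.24 with the trend removed. Gstcd, a protein with the C-terminal domain of the family, rose from 12.5 ± 0.613 to 22.7 ± 0.44 FPKM (0.81, limma adjusted p = 2.41e-07). Of the 5 genes under the filter, Mgst2 was at 0.714, 0.473 and 0.69 FPKM in DMEM and at 0.0373, 0.193 and 0.115 FPKM in RPMI-1640, and Gsta3, Gstm3, Gsto2 and Gstt4 overlapped between the media.

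**Figure D2:**
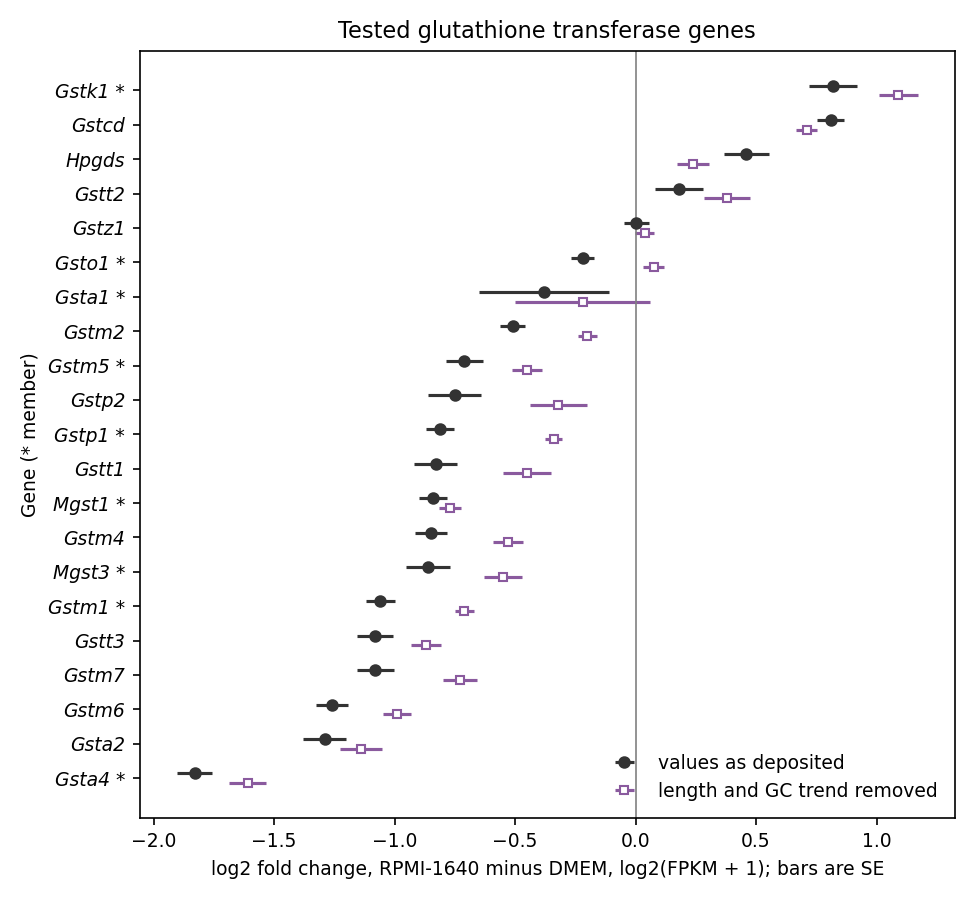
log2 fold changes with SE (RPMI-1640 minus DMEM, log2(FPKM + 1)) of the 21 tested transferase genes, as deposited (filled) and with the length and GC trend removed (open); asterisks mark the 9 listed genes. Gsta4 is lowest at -1.83 and Gstk1 highest at 0.82, and the open symbols lie to the right of the filled ones for most of the lower genes.

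Transferase genes are short, and in these libraries the difference between the media followed gene length and base composition. The lengths implied by the FPKM steps were 635 to 1276 bases for the 9 genes, against a median of 2851 bases for tested genes, and 7 of the 9 were among the shortest 10% of tested genes. The median log2 fold change of all genes in that bin was -0.32, and in the longest 10% it was 0.55. Their part in the result was not tested, other than by the correction given next. With this trend taken out of each library, 6 of the 9 genes were past the threshold as lower (36.8% of all 10323 genes with a length and GC value), 1 as higher (37.2% of all) and 2, Gsta1 and Gsto1, were not; 74.0% of all were called in either direction. The log2 fold change then was -1.61 for Gsta4 (SE 0.076), -0.71 for Gstm1 (0.041) and -0.77 for Mgst1 (0.044). It was nearer to 0 for Gstp1 (-0.34), Gstm5 (-0.45) and Mgst3 (-0.55), and larger for Gstk1 (1.09). The median of the 9 went from -0.81 to -0.45. Of the 12 other tested genes 8 then fell and 3 rose, with Gstt2 now past the threshold at 0.38, and their median was -0.39. The difference in Gstp1 was thus much smaller after this correction, and that in Gsta4 was -1.61 against -1.83 as deposited.

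Summed over the 24 genes of 8 classes (Hpgds and Gstcd left out), transferase transcripts came to 1236, 1141 and 1254 FPKM in DMEM and to 715, 697 and 731 FPKM in RPMI-1640. The sum was 0.249% ± 0.0079 of all FPKM in DMEM and 0.165% ± 0.00268 in RPMI-1640. These sums are of deposited values, and none was made with the trend removed. Gstp1 was the largest part of them, at means of 664 FPKM in DMEM and 378 FPKM in RPMI-1640. Its log2 fold change went from -0.81 to -0.34 with the trend removed. The pi class held 58.1%, 56.5% and 58.1% of the sum in DMEM and 53.9%, 56.9% and 55.8% in RPMI-1640, and the mu class 22.5% ± 0.747 and 21.7% ± 0.883, so that the ranges of either class overlapped between the media. The omega class took 3.72% ± 0.15 in DMEM and 5.4% ± 0.205 in RPMI-1640, the zeta class 2.79% ± 0.0504 and 4.74% ± 0.263, and the kappa class 0.402% ± 0.0564 and 1.31% ± 0.0804. These 3 classes had larger shares in every RPMI-1640 library than in any DMEM library, and the microsomal (4.5% ± 0.173 and 4.09% ± 0.179) and theta (1.53% ± 0.0718 and 1.28% ± 0.093) classes smaller ones. Of the 3, only the kappa class was higher in summed FPKM. The omega sum was 46.2, 44.1 and 44.7 FPKM in DMEM and 40.0, 37.7 and 37.9 FPKM in RPMI-1640. The zeta sum was 34.6, 32.3 and 34.3 FPKM in DMEM and 34.2, 34.6 and 32.6 FPKM in RPMI-1640. The alpha class ranged from 6.53% to 7.49% in DMEM and from 4.43% to 8.12% in RPMI-1640, where its highest share was in replicate 1.

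**Figure D3:**
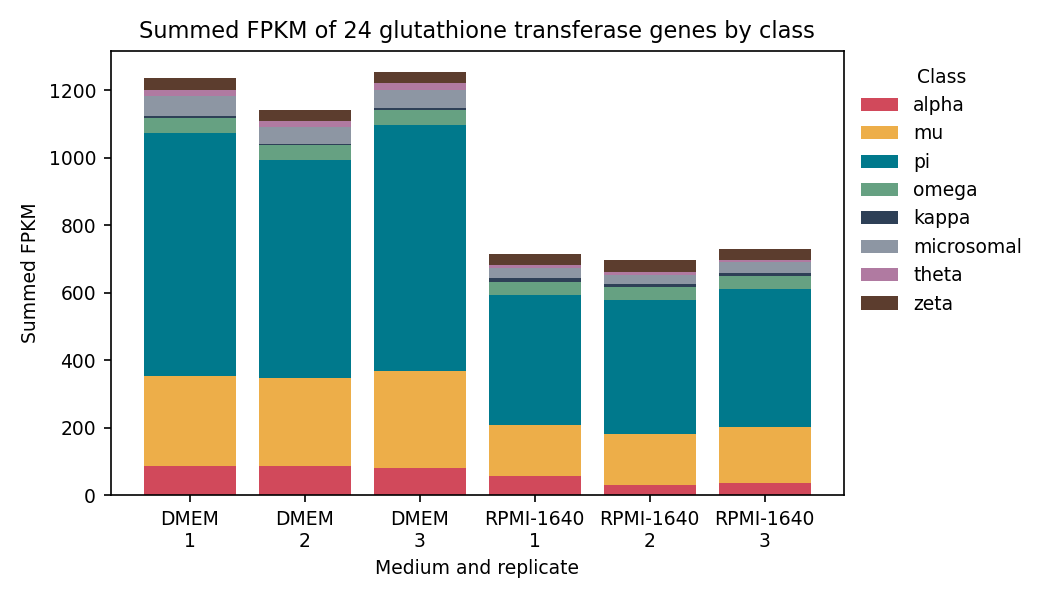
Stacked bars of summed FPKM of 24 transferase genes by class in each library. The DMEM bars reach 1141 to 1254 FPKM and the RPMI-1640 bars 697 to 731 FPKM, with the pi class as the largest block in all 6.

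The promoters of the genes were searched for the core of the antioxidant response element, the site bound by NRF2, spelled TGACNNNGC, on either strand in the 250 bases before the start in RefSeq (GRCm38.p6). Of the 8 listed genes with an entry, 2 held a match, Gstm5 and Mgst1, beside 2 of 16 other family genes and 14.1% of the 8343 tested genes with an entry. Gsta4 had no entry and was not searched. The matches are shown because they are the only ones among the listed genes, each as 30 bases of the plus strand with the match in capitals, at chr3:107895802-107895831 for Gstm5 and chr6:138140461-138140490 for Mgst1, where it reads on the minus strand.
Gstm5: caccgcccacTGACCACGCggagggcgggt
Mgst1: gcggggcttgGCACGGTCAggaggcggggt
Their first bases are 42 and 56 bases before the start of the RefSeq entry searched. These starts are not the GENCODE gene starts given above, and the Mgst1 match lies after the GENCODE start of that gene (138140316). The other RefSeq entry of Mgst1 held 0 matches. A match is a description of the letters only, and no match says only that they are not in this window.

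Genes that supply, use and clear glutathione differed in direction. The counts of their lists stand beside 35.4% of all tested genes that were called lower and 40.6% called higher (36.8% and 37.2% with the trend removed), and several lists are close to these shares. Of the 7 glutathione synthesis genes, 4 rose and 2 fell (median log2 fold change 0.25), and 1 did not pass. Gclc, the catalytic subunit of the first step, rose from 11.8 ± 1.32 to 20.4 ± 0.505 FPKM (0.74, limma adjusted p = 3.51e-06), and Cth, cystathionine gamma-lyase, rose by 0.55. Cbs, the enzyme before it, fell to 0.746 ± 0.217 from 2.63 ± 0.367 FPKM (-1.06). Cbs passed the filter of 1 FPKM only through its DMEM values, which favours a call of lower. Slc7a11, the cystine transporter, was past the threshold as higher at 0.49 and as lower at -0.33 with the trend removed, where 3 of the genes rose, 4 fell and the median was -0.19. The direction of the list therefore depends on the correction.

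Of 8 tested peroxidase, reductase and glutaredoxin genes, 5 fell, 1 rose and 2 did not pass (median -0.31, or -0.15 with the trend removed). Glrx, the cytosolic glutaredoxin, had a log2 fold change of -0.88 and Glrx5, of mitochondrial iron-sulfur assembly, of -0.47 (-0.80 and -0.10 with the trend removed). Gpx4, the peroxidase of membrane lipids, fell from 428 ± 49.0 to 295 ± 12.8 FPKM (-0.53), but stood at 0.019 and did not pass with the trend removed. In glutathione breakdown 4 of 8 fell (35.4% of all tested genes did), 0 rose (40.6% of all) and 4 did not pass, with Ggt1, gamma-glutamyltransferase (-0.90, or -0.59 with the trend removed), Anpep (-0.67) and Lap3 (-0.21) the most changed. Anpep, at means of 1.98 FPKM in DMEM and 0.873 FPKM in RPMI-1640, passed the filter of 1 FPKM only through DMEM, which favours a call of lower. With the trend removed 4 fell and 3 rose, and Chac1 went from called lower (-0.12) to called higher (0.29). The count of 0 by limma was also 0 at an unadjusted p under 0.05 and 0 by limma-voom. Of 6 tested export pumps 3 rose, among them Abcc4 (0.62) and Abcc5 (0.42), 1 fell (Abcg2, -0.37) and 2 did not pass. With the trend removed these values were 0.35, 0.16 and -0.63, and 3 rose and 1 fell. Of the MAPEG family, to which the microsomal transferases belong, Alox5ap, the partner of arachidonate lipoxygenase, was the only other tested gene. It was at 1.76 ± 0.362 FPKM in DMEM and at 0.491 ± 0.115 FPKM in RPMI-1640 (-0.88, or -0.53 with the trend removed). Alox5ap passed the filter of 1 FPKM only through its DMEM values, which favours a call of lower, so nothing is read from its direction.

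Of 10 genes of NRF2 and its regulators 5 rose, 3 fell and 2 did not pass, near the shares of all tested genes (40.6% higher, 35.4% lower). With the trend removed 4 rose, 3 fell and 3 did not pass, and Bach1, a repressor at the same sites, went from called higher (0.27) to called lower (-0.19). Nfe2l2, which encodes NRF2, rose by 0.45 and Cul3, of its ubiquitin ligase, by 0.80 (0.29 with the trend removed). Sqstm1, an autophagy receptor that binds the NRF2 inhibitor KEAP1, fell from 1180 ± 36.4 to 606 ± 20.4 FPKM (-0.96), and Maff, a small partner of NRF2, had -0.81 (-0.44 with the trend removed). Of 19 other NRF2 targets 13 fell (35.4% of all tested genes did), 1 rose (Txnrd1, 0.49) and 5 did not pass (median -0.37, or -0.18 with the trend removed, where 11 fell and 4 rose). Ftl1 went from called lower (-0.35) to called higher (0.16) with the trend removed. Ephx1, the microsomal epoxide hydrolase, went from 222 ± 5.91 to 87.9 ± 2.36 FPKM (-1.33, limma adjusted p = 2.58e-09). Srxn1, sulfiredoxin, had -0.96 and Pgd, an NADPH-producing dehydrogenase, -0.92. Of 9 tested genes that remove reactive aldehydes, a group to which the substrate of Gsta4 belongs, 6 fell, 1 rose and 2 did not pass (median -0.32). With the trend removed 5 fell, 1 rose and 3 did not pass (median -0.14). Hagh, of the glyoxalase pathway (-0.59, or -0.21 with the trend removed), and Akr1a1, aldehyde reductase (-0.42), fell, and Aldh3a2, fatty aldehyde dehydrogenase, rose (0.58).

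The genes whose values over the 6 libraries were most like those of Gsta4, by the root mean square difference of centred log2(FPKM + 1) values among the 8484 genes averaging 5 FPKM or more, were Trpm1 (0.104), Egln1 (0.129) and Selenbp1 (0.131). Those most like Gstm1 were Sdsl (0.0261), Mapre3 (0.0333) and Ifi35 (0.0375). These are descriptions over 6 libraries that fall into 2 media.

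**Figure D4:**
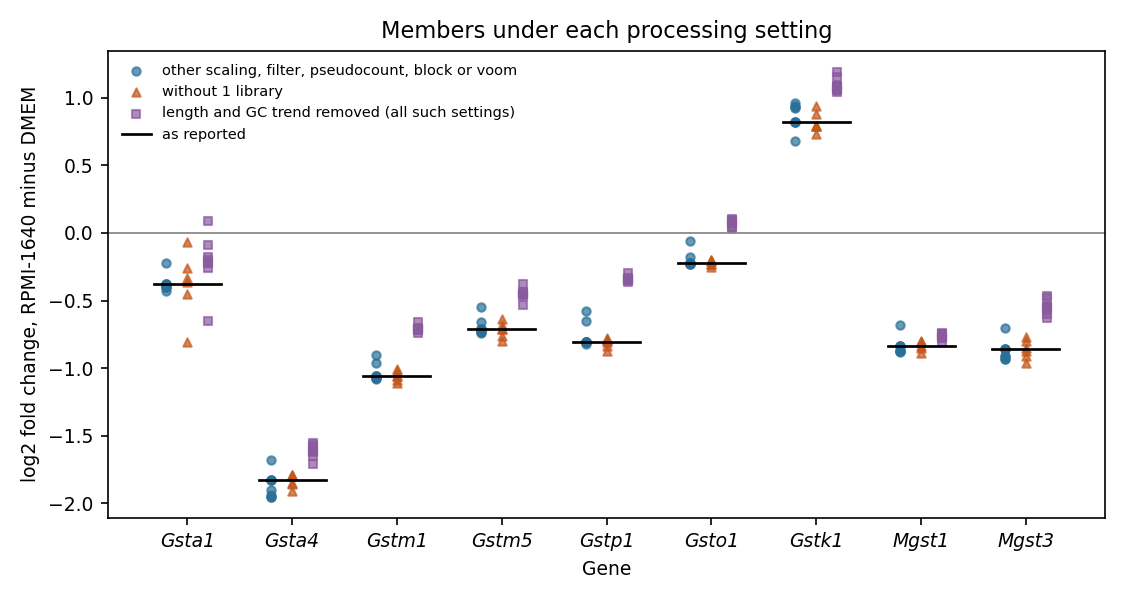
log2 fold changes (RPMI-1640 minus DMEM) of the 9 genes as reported (black line), under other scaling, filters, pseudocounts, the replicate block and voom (circles), without 1 library (triangles), and in all settings with the length and GC trend removed (squares). The symbols of 7 genes stay on 1 side of 0, those of Gsto1 lie between -0.25 and 0.10, and those of Gsta1 between -0.81 and 0.086.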

How the data were processed

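The authors deposited 1 table of FPKM values, 1 column per library, not pooled. The builds GRCm38 and mm10 are named per the submitters' processing notes. The aligner, counter and annotation, and whether strand was used, were not given in the sources used here. Libraries were made from Trizol-extracted RNA with a SMARTer kit, per the labels' protocols, and were grouped by medium from their titles.

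Genes averaging 1 FPKM or more were tested with limma 3.58.1 (R 4.3.3) on log2(FPKM + 1), with a mean-variance trend and medium as sole factor (two-sided); Benjamini-Hochberg adjusted p under 0.05 was called. Whole reads were recovered for 99.99% of tested genes (within 0.001 reads) from the FPKM steps, giving relative lengths and depths, and were used in limma-voom, which called 8067 genes beside 8078. The absolute scale of lengths and depths came from the annotated lengths of 718 genes with 1 transcript. The commonest factor among them was used, which 79 of the 718 had. The trend was removed from each library by fitting natural splines (5 df each) to log2 length and GC content. Length came from the FPKM steps on this scale, and GC content from the longest GENCODE transcript of each gene. That transcript has 1 exon for Gstt3, Gstz1 and Hpgds, so their GC content may not be that of the transcripts counted. Replicates differed by more than counting noise (chi-square per degree of freedom at least 4.68). Deviations of same-numbered libraries correlated at 0.151, 0.15 and 0.382. The replicate numbers served as a block in alternative fits only, and the reported test did not pair libraries. Correlations of DMEM 1 with RPMI-1640 2 (0.131) and DMEM 2 with RPMI-1640 1 (0.137) were nearly as high. With the trend removed, same-numbered libraries were at 0.0567, 0.0408 and 0.151. DMEM 1 with RPMI-1640 2 was then at 0.0727 and DMEM 2 with RPMI-1640 1 at 0.0125. The pairing is thus uncertain, and these values do not single out pairs for numbers 1 and 2. Steps were run on simulated data with few changed genes, all raised, and independent noise. In the real data 76.0% of tested genes were called, in both directions, so that run does not show how the steps perform here. Members and lists were chosen with earlier results of these data known. Named are the 9 genes, the other family genes tested, up to 3 called genes with the largest change per partner list, and the 3 genes most like Gsta4 and Gstm1. Nfe2l2, Slc7a11, Txnrd1, Bach1, Chac1, Ftl1, Gm3776 and Gm10639 were added after their values were seen. Figures were drawn with matplotlib 3.10.9.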

Additional observations from a re-analysis of the deposited data

How the results depend on the processing

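The alternatives were other pseudocounts (0.01 and 0.1), no filter or a mean of at least 5 FPKM, a common total, quantile normalization, removal of the length and GC trend, the replicate block with and without it, and each library left out; limma-voom on recovered reads and leaving out libraries with the trend removed were chosen after seeing the data. The planned runs of edgeR and DESeq2 were not run, since the deposited unit is FPKM. Gsta4, Gstm1, Gstm5, Gstp1, Gstk1, Mgst1 and Mgst3 kept their direction and their side of the threshold in all 22 settings; Gsta4 ranged from -1.95 to -1.55 and Gstk1 from 0.68 to 1.19. The 9 genes gave 6 to 8 called lower and 1 called higher in every setting. Over all genes, 35.4% were called lower and 40.6% higher as deposited. The number called over all genes ran from 6555 (mean of at least 5 FPKM) to 8968 (no filter). The 9 genes were chosen from these same libraries, so their calls across settings describe the processing only. A common total moved the median log2 fold change of all genes from 0.033 to 0.18; with it 4 other family genes were called higher instead of 2, and 23 partner genes instead of 15, and the cause was not tested. Gsto1 changed direction with the trend removed (0.076, also with the replicate block added; with a library left out there, 0.093, 0.088 and 0.046 without DMEM replicates 1, 2 and 3, and 0.039, 0.085 and 0.1 without RPMI-1640 replicates 1, 2 and 3), and was -0.06 and not past the threshold with a common total. Gsta1 ranged from -0.81 without RPMI-1640 replicate 1 to 0.086 without RPMI-1640 replicate 2 and with the trend removed. Gstz1, which did not pass, was -0.027 without DMEM replicate 2, -0.014 without RPMI-1640 replicate 2 and -0.0049 without RPMI-1640 replicate 1, within a leave-one-out range of -0.027 to 0.029; with a common total it was 0.16 and past the threshold. With the replicate block 8432 genes were called, and the block changed no call of the 21 tested family genes on the deposited values. Gstp2 did not pass with the trend removed when a DMEM library was left out (-0.34 to -0.29). The share of the alpha class, a mean difference of -1.13 percentage points, was -2.24 points without RPMI-1640 replicate 1 and -0.391 points without RPMI-1640 replicate 2. That of the mu class, -0.752 points, was -0.298 without RPMI-1640 replicate 1, -0.47 without DMEM replicate 2 and -1.18 without DMEM replicate 1 or RPMI-1640 replicate 3, and that of the pi class, -1.99 points, was -1.17 without RPMI-1640 replicate 1. Gstt2 passed as higher in 10 of 21 settings (0.12 to 0.48 over all of them). Among the tested family genes Gstt2 had the fewest reads (63 to 112 per library); of the partner genes named, Alox5ap had 17 to 91 and Cbs 26 to 170.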
